A study of Mus musculus with 6 samples.

Results

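The aryl hydrocarbon receptor, its dimer partner, 2 feedback genes and 5 genes of the enzymes it is known to induce were followed in mouse cells treated with baicalin. The 9 genes (Ahr, Arnt, Ahrr, Tiparp, Cyp1a1, Cyp1a2, Cyp1b1, Nqo1 and Aldh3a1) are 9 of the 54532 genes in the deposited table. They were chosen by name as members of 1 pathway, at a time when their read counts in these same libraries, baicalin against DMSO, were already known. That contrast is therefore described for them without a test, and the calls given for them are descriptions. The cells are 3T3, a mouse fibroblast line, of wild-type genotype, labelled adipocytes. Of the 6 samples, 3 received the solvent DMSO and 3 received 200 µM baicalin, a flavone glucuronide from Scutellaria roots. Both groups share the line, the genotype and the library preparation. The sources used here do not give the length of treatment, the way the cells became adipocytes, or whether a group's samples were grown as separate cultures. Any p-value here therefore reflects only how far these 6 libraries vary, and that variation may be technical.

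The aryl hydrocarbon receptor is a cytosolic transcription factor of the bHLH-PAS family, held by HSP90 and its co-chaperones until a flat aromatic ligand binds. It then enters the nucleus, pairs with ARNT and binds the xenobiotic response element, whose core is GCGTG, near genes of drug-metabolising enzymes. Of its targets, the repressor AHRR and the ADP-ribosyltransferase TIPARP (PARP7) limit the receptor in turn. In fibroblasts and preadipocytes the receptor is best known for inducing CYP1B1 and for restraining fat cell formation.

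The libraries held between 16730594 and 18326874 counted reads. Taking 3 reads as the limit, a gene without reads was at most at 0.179 CPM (reads scaled to a common library total) in any library, counting error only. That limit uses plain library totals. CPM levels of genes given below are also scaled by the TMM factors of the fit, on which 3 reads in baicalin library 1 are 0.1805 CPM. Over all genes, 13728 were tested and 67.7% of them were called at a Benjamini-Hochberg adjusted p under 0.05 in edgeR's quasi-likelihood test. Called higher in baicalin were 33.6% of the tested genes and called lower 34.1%, and the groups did not overlap in CPM for 70.2%. With library size as the only scaling, 37.4% of the called genes were higher in place of 49.7%, and the typical gene shifted too, to a median of -0.13 on the log2 scale. Of 12 markers of mature fat cells 6 reached 1 FPKM (a read level scaled to gene length and depth) on average, and all 12 summed to 244 to 274 FPKM in DMSO against 137 to 141 FPKM in baicalin. The members of that list differed: Lpl was at 138.8 FPKM in DMSO and at 47.7 FPKM with baicalin, Fabp4 at 96.5 and 67.5, but Lipe at 10.1 and 15.4. Also lower were Pparg (6.01 and 4.76), Plin1 (4.1 and 1.3), Cidec (2.87 and 0.29) and Adipoq (1.21 and 0.10 FPKM). Cebpa (0.37 and 0.61) and Retn (0.05 and 0.35 FPKM) were higher. Lep, Slc2a4 and Adrb3 had at most 3 reads in any library. The 10 fibroblast and preadipocyte markers summed to 2426 to 2547 FPKM in DMSO against 2363 to 2427 FPKM in baicalin, a sum over unlike changes (Pdgfra 143.4 and 66.3, Dlk1 231 and 105.1, Ly6a 64.7 and 245.1, Thy1 38.7 and 83.4 FPKM). Macrophage markers (6 genes) summed to 1.04 to 1.33 FPKM in DMSO against 1.70 to 3.31 FPKM in baicalin, with Cd68 as the 1 gene among them that reached 1 FPKM on average and Itgam, Adgre1 and Ptprc at or near 0. The part of these marker differences in the results below was not tested. Summed in any library, hepatocyte markers reached at most 0.445 FPKM, endothelial markers 0.22 FPKM and epithelial markers 0.0294 FPKM. In such bulk samples, fewer cells of a type and less RNA per cell cannot be told apart.

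Of the 9 members, 7 had enough reads to be tested and 2, Ahrr and Cyp1a2, did not. In the fit 6 of the 7 were called higher (against 33.6% of all tested genes) and 1, Arnt, lower (against 34.1%). The groups overlapped for none of the 7 (they do not overlap for 70.2% of all tested genes). The median log2 fold change was 1.68 over the 7 and 0.00 over all tested genes. These counts come from the contrast in view when the members were chosen, and nothing is read from them.

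**Figure D1:**
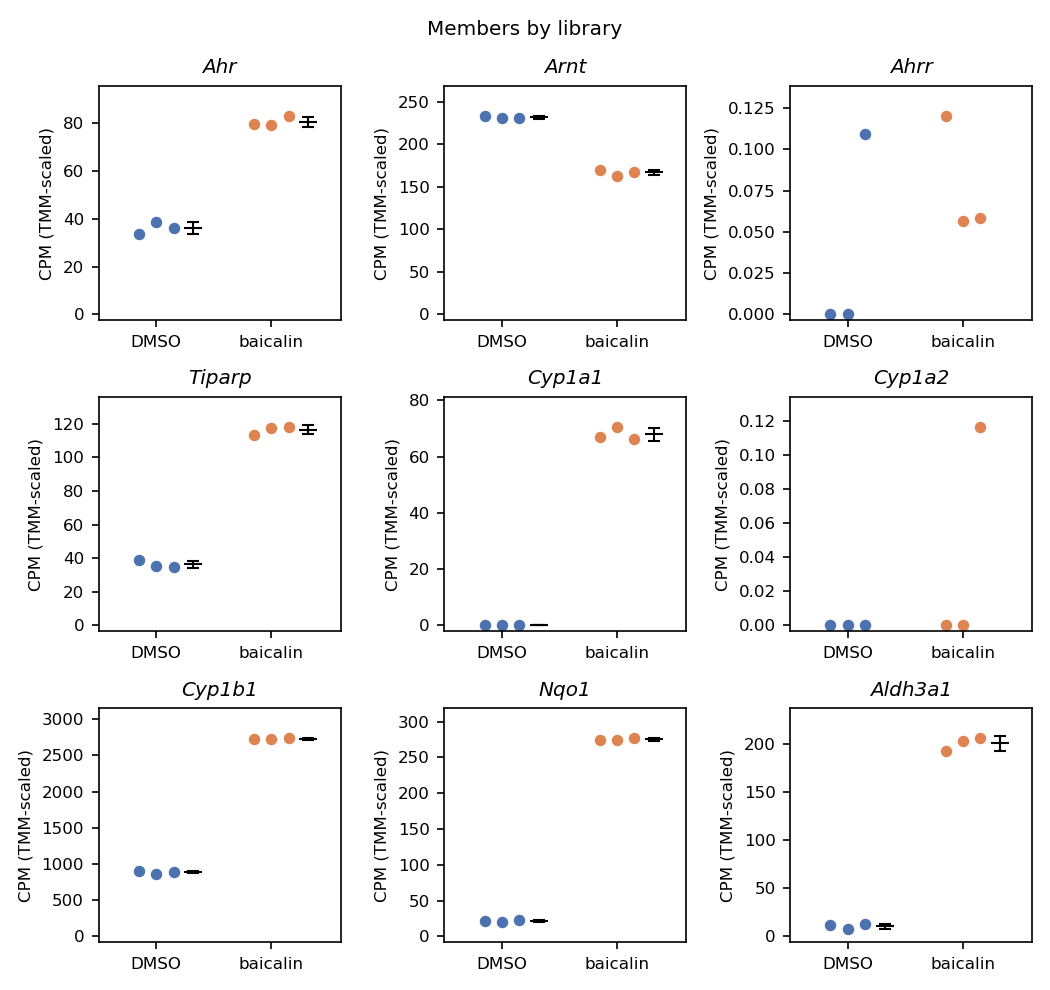
CPM (TMM-scaled) of each member in each library, 1 panel per gene, with blue points for DMSO, orange points for baicalin and, beside them, the mean and SD (n = 3). Ahrr and Cyp1a2 have no mean drawn because they rest on at most 2 reads in a library. In the other 7 panels the groups stand apart, with Arnt as the 1 gene that is lower in baicalin.

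The bases just before the transcription start are shown for 4 members that differ in how they behaved. Cyp1a1 went from no reads to at least 1110 in a library and Cyp1b1 was abundant throughout. Nqo1 had one of the larger fold changes, and Ahrr had next to no reads in either group. RefSeq (GRCm38.p6, the mm10 assembly) gave an entry for 7 of the 9 members, and Ahr and Aldh3a1 have none. Each line holds the 250 bases before the start, 5′ to 3′ on the strand of the gene. Capitals mark matches to GCGTG (written CACGC where the match is on the opposite strand) and to TATAAA, the letters of a TATA box. The windows are chr9:57697363-57697612 (plus strand) for Cyp1a1, chr17:79715062-79715311 (minus strand) for Cyp1b1, chr13:74292332-74292581 (minus strand) for Ahrr and chr8:107403206-107403455 (minus strand) for Nqo1.
Cyp1a1: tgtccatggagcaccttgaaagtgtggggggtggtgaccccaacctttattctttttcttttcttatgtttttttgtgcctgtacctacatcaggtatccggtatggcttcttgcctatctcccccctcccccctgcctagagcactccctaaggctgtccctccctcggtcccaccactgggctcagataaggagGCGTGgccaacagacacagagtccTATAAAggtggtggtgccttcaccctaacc
Cyp1b1: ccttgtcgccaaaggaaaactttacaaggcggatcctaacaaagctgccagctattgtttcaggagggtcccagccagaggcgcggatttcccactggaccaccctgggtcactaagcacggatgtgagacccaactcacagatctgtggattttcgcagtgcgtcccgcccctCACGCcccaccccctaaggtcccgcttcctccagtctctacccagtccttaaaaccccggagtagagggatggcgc
Ahrr: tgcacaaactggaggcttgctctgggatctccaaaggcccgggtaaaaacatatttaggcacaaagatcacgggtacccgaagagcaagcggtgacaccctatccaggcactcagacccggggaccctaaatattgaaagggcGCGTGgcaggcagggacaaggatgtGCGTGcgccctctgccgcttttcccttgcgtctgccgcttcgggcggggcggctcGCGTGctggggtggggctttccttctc
Nqo1: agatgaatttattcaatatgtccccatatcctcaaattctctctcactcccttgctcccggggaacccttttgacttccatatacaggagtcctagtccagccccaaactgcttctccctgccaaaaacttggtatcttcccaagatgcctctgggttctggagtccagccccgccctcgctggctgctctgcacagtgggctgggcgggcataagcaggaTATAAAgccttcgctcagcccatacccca

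Ahrr held the most matches to the core, 3, at 107, 82 and 27 bases before the start. The last of these was also the 1 match among the members to the longer TNGCGTG. Cyp1a1 held 1 core match 54 bases before the start and a TATA box at 30 bases. Cyp1b1 and Tiparp each held 1 core match on the opposite strand, at 76 and 170 bases, and Arnt held 1 at 29 bases. Nqo1 and Cyp1a2 held no core match in this window, and each had a TATA box 29 bases before the start. Searched on both strands, GCGTG occurs in 28.2% of the 32851 RefSeq windows of this length, TNGCGTG, which contains it, in 4.1% and TATAAA in 12.4%. TGACNNNGC, the core of the antioxidant response element that NRF2 binds, occurs in 10.2% of windows. Among the members only Arnt held it, with 1 match on each strand. CACGTG, the E-box of other bHLH factors, was in 6.02% of windows and in none of the 7. The best studied response elements of Cyp1a1 and Nqo1 lie farther upstream than these windows reach.

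**Figure D2:**
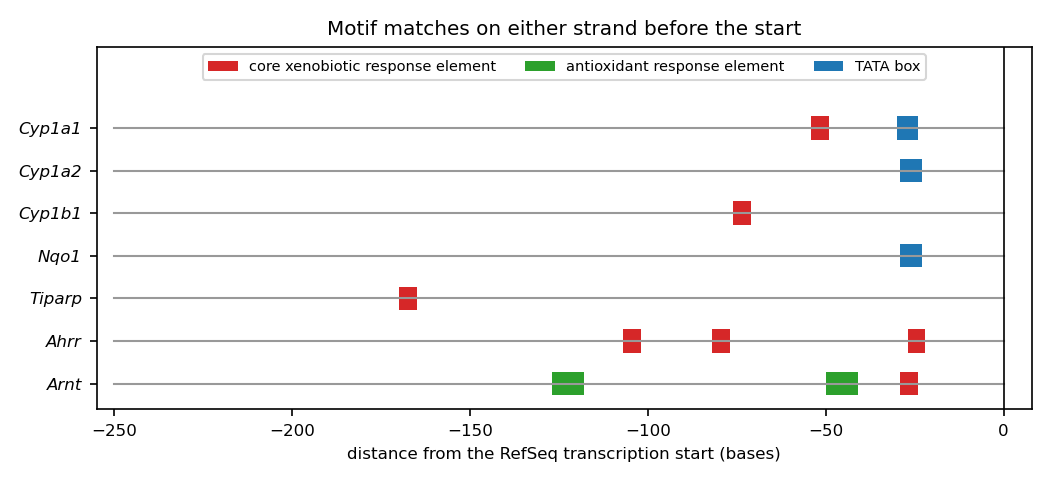
Positions of matches in the 250 bases before the RefSeq start of 7 members, in bases from the start, on either strand. Red marks the core of the xenobiotic response element, green the antioxidant response element and blue the TATA box. Ahrr carries 3 red marks, and Nqo1 and Cyp1a2 carry none.

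Ahr (ENSMUSG00000019256, chromosome 12, 35497974 to 35535038, minus strand) encodes the receptor itself. It had 619, 674 and 663 reads in the DMSO libraries against 1320, 1399 and 1426 in the baicalin libraries. All 3 baicalin libraries lay above all 3 DMSO libraries. On the CPM scale the level was 36.1 ± 2.52 in DMSO against 80.5 ± 2.22 in baicalin (SD, n = 3 each), a log2 fold change of 1.16 (SE 0.06). Exons of Ahr overlap those of the opposite-strand transcript Gm48236 over 127 bases, but that transcript had 4 reads in all 6 libraries together.

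Arnt (ENSMUSG00000015522, chromosome 3, 95434388 to 95497240, plus strand) encodes the partner that the receptor shares with the hypoxia-inducible factors. Its reads were 4307, 4029 and 4211 in DMSO against 2814, 2887 and 2879 in baicalin. The baicalin libraries were all lower, and the libraries of a group lay close together. Its CPM was 231.5 ± 1.57 in DMSO against 166.7 ± 3.24 in baicalin (SD, n = 3 each), with a log2 fold change of -0.47 (SE 0.04).

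The receptor and its partner thus moved in opposite directions. Per length, the partner's transcript was the more abundant of the pair in every library. The ratio of Arnt to Ahr in FPKM was 5.36, 4.60 and 4.89 in DMSO against 1.64, 1.59 and 1.55 in baicalin. It stood at 4.95 ± 0.38 in DMSO against at 1.59 ± 0.04 in baicalin (SD, n = 3 each). By FPKM, Ahr ranked 6570 among all genes in DMSO against 3824 in baicalin, and Arnt ranked 1627 and 2536.

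**Figure D3:**
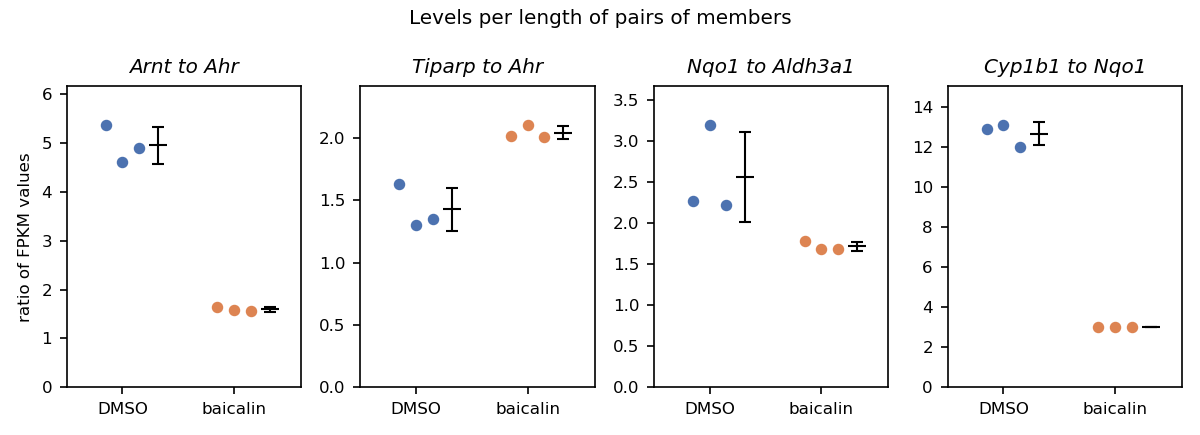
Ratios of FPKM values between pairs of members in each library (blue DMSO, orange baicalin), with the mean and SD (n = 3). The Arnt to Ahr ratio is 4.95 in DMSO against 1.59 in baicalin, and in each of the 4 panels the baicalin libraries lie closer together than the DMSO libraries. Ahr, Tiparp, Nqo1 and Aldh3a1 had fewer reads in DMSO, and the part of counting error in this closeness was not tested.

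Tiparp (ENSMUSG00000034640, chromosome 3, 65528410 to 65555518, plus strand) encodes an ADP-ribosyltransferase that is induced by the receptor and promotes its breakdown. Reads numbered 713, 622 and 633 under DMSO and 1884, 2080 and 2027 under baicalin. The groups stood far apart, with 36.3 ± 2.06 CPM in DMSO against 116.3 ± 2.56 CPM in baicalin (SD, n = 3 each) and a log2 fold change of 1.68 (SE 0.05). Per length its level was 1.43 ± 0.18 times that of Ahr in DMSO against 2.04 ± 0.05 times in baicalin. Without a known strand setting the reads of Tiparp and of the opposite-strand pseudogene 4931440P22Rik, whose exons overlap over 223 bases, cannot be told apart there. That pseudogene had 284 reads in all against 7959 for Tiparp.

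Ahrr (ENSMUSG00000021575, chromosome 13, 74211118 to 74292331, minus strand) encodes the repressor that competes with the receptor for ARNT. Its window, printed above, holds 3 core matches. The DMSO libraries held 0, 0 and 2 of its reads, the baicalin libraries 2, 1 and 1. The sums of 2 and 4 reads have exact Poisson 95% intervals of 0.242 to 7.23 and 1.09 to 10.2 reads, which overlap and cover counting error only. The level was at most 0.12 CPM in any library, so no difference was detectable at this depth. The 2 feedback genes of the pathway therefore differed in level, Tiparp being at 27.2 ± 0.47 FPKM and Ahrr at 0.0085 ± 0.004 FPKM in baicalin (SD, n = 3 each).

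Cyp1a1 (ENSMUSG00000032315, chromosome 9, 57687928 to 57703824, plus strand) encodes the P450 enzyme used as the standard readout of receptor activity. No DMSO library held a read of it, and the baicalin libraries held 1110, 1249 and 1139. Its level in baicalin was 67.9 ± 2.32 CPM (SD, n = 3), at least 1227-fold higher than the 0.0554 CPM that 3 counts over the whole DMSO group would give. In FPKM it reached 24.8 ± 0.76 and ranked 2198 among all genes.

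Cyp1a2 (ENSMUSG00000032310, chromosome 9, 57676937 to 57683703, minus strand) lies next to Cyp1a1 in the opposite orientation and encodes a P450 enzyme found mainly in liver. It had no read in DMSO against 0, 0 and 2 reads in baicalin. The baicalin sum of 2 reads has an exact Poisson 95% interval of 0.242 to 7.23 reads, and the DMSO sum of 0 allows up to 3 reads. Its transcripts share 94 of 1963 stretches of 50 bases with those of Cyp1a1, and whether its 2 reads came from Cyp1a1 was not tested. The neighbours were thus at 67.9 and 0.04 CPM in the same libraries. Alb, Ttr and the other 4 hepatocyte markers were near 0 as given above.

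Cyp1b1 (ENSMUSG00000024087, chromosome 17, 79701537 to 79715061, minus strand) encodes the family's enzyme of connective tissue, which oxidises estrogens and polycyclic hydrocarbons. It was the most abundant member in every library. The DMSO libraries held 16652, 15186 and 16274 reads and the baicalin libraries 45332, 48165 and 47084. On the CPM scale it went from 887 ± 17.2 to 2731 ± 10.9 (SD, n = 3 each), a log2 fold change of 1.62 (SE 0.04). Its FPKM rank among all genes was 229 in DMSO against 78 in baicalin. In baicalin, 0.261% ± 0.003 of all counted reads came from this 1 gene, against 0.0926% ± 0.0017 in DMSO.

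Where Cyp1a1 had no reads, Cyp1b1 was already at 174 ± 3.57 FPKM. In the 3 baicalin libraries Cyp1b1 was still 22.2, 20.96 and 22.5 times as abundant per length as Cyp1a1. P450 families 1 to 4 include most drug-metabolising P450 enzymes. Counted here were 75 of their genes, those with symbols of a single subfamily letter and a number. Genes with other forms of symbol are left out. The summed FPKM of the 75 was 254 ± 2.26 in DMSO against 656 ± 4.2 in baicalin. Cyp1b1 made up 68.6% ± 0.81 of that sum in DMSO against 82.7% ± 0.08 in baicalin, and Cyp1a1 made up 3.78% ± 0.14 in baicalin (SD, n = 3 each).

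**Figure D4:**
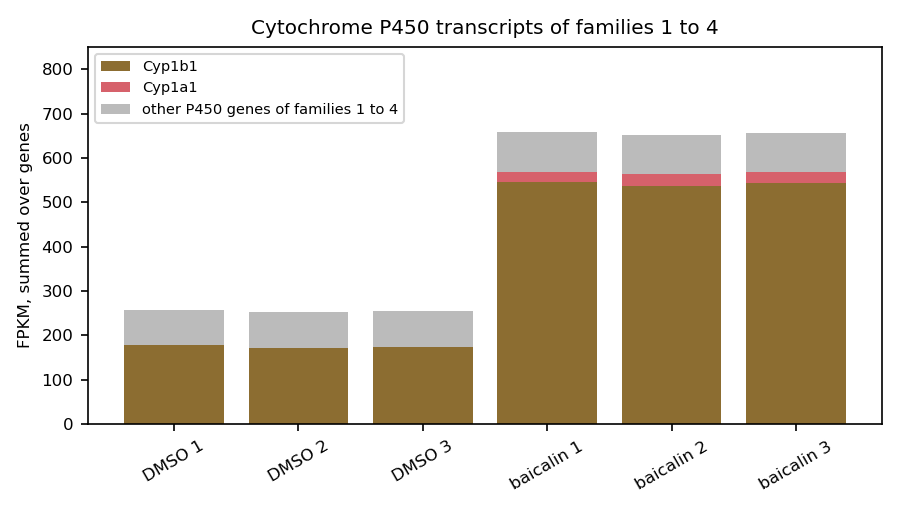
Summed FPKM of the 75 counted cytochrome P450 genes of families 1 to 4 in each library, stacked as Cyp1b1, Cyp1a1 and all others counted. Cyp1b1 is the largest part of every bar, and the sums are 254 FPKM on average in DMSO against 656 FPKM in baicalin.

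Most of the other 72 P450 genes counted were too low to test. No read was found for 24 of them in any library and 12 could be tested. Of these 12, 3 were called higher and 5 lower, against 33.6% and 34.1% of all tested genes. Their median log2 fold change was -0.03. Cyp2f2 rose from 30.1 ± 2.32 to 51.9 ± 0.82 CPM (SD, n = 3 each, edgeR adjusted p = 1.26e-15). Cyp4b1, an enzyme of the fatty acid hydroxylase family, fell from 9.57 ± 0.5 to 3.45 ± 0.25 CPM (adjusted p = 2.03e-12). Of 6 genes that supply or tune electron flow to these enzymes 5 were higher, against the same shares over all tested genes. The 1 lower gene was Cyb5a (log2 fold change -0.14). Cyb5a was no longer called with no count filter (-0.10) or when DMSO replicate 1 was left out (-0.11). Por, the reductase that passes electrons to every microsomal P450 enzyme, rose from 201.6 ± 7.75 to 369 ± 8.55 CPM (SD, n = 3 each, adjusted p = 3.28e-26), and Cyb5r1 by a log2 fold change of 0.93 (adjusted p = 6.46e-25).

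Nqo1 (ENSMUSG00000003849, chromosome 8, 107388225 to 107403206, minus strand) encodes a quinone reductase that both the receptor and NRF2 are known to induce. Its reads were 391, 352 and 411 in DMSO against 4551, 4851 and 4764 in baicalin. The baicalin libraries all lay above the DMSO libraries, with a coefficient of variation of CPM of 0.74% against 5.63% for DMSO. The DMSO values rest on fewer reads, where counting error is relatively larger, and its part in this difference in spread was not tested. With 21.3 ± 1.2 and 275 ± 2.03 CPM (SD, n = 3 each) its log2 fold change was 3.69 (SE 0.05), and its FPKM rank moved from 3540 to 267.

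Aldh3a1 (ENSMUSG00000019102, chromosome 11, 61207537 to 61218421, plus strand) encodes an aldehyde dehydrogenase that belongs to the classical gene battery of the receptor. Reads numbered 216, 138 and 231 under DMSO and 3190, 3590 and 3540 under baicalin. The second DMSO library was the lowest, and all baicalin libraries lay above all DMSO libraries. Its CPM was 10.7 ± 2.52 in DMSO against 200.3 ± 7.43 in baicalin (SD, n = 3 each), and the log2 fold change was 4.21 (SE 0.13). Of the tested members with reads in both groups it had the widest spread, with a coefficient of variation of 23.4% in DMSO. Without DMSO replicate 2 the log2 fold change was 4.04.

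Nqo1 and Aldh3a1 changed by more than Ahr, Tiparp and Cyp1b1, whose log2 fold changes lay between 1.16 and 1.68. The ratio of Nqo1 to Aldh3a1 per length was 2.26, 3.19 and 2.23 in DMSO against 1.78, 1.69 and 1.68 in baicalin. Cyp1b1 was 12.7 ± 0.58 times as abundant per length as Nqo1 in DMSO against 3.01 ± 0.01 times in baicalin (SD, n = 3 each). In order of FPKM in DMSO the members ran Cyp1b1 (174), Arnt (29.1), Nqo1 (13.8), Tiparp (8.39), Ahr (5.91) and Aldh3a1 (5.58), then Ahrr, Cyp1a1 and Cyp1a2 at or near 0. The neighbours Ahr and Aldh3a1 differed by less than their spread. In baicalin the order was Cyp1b1 (542), Nqo1 (180), Aldh3a1 (105), Tiparp (27.2), Cyp1a1 (24.8), Arnt (21.2) and Ahr (13.3), with Cyp1a2 and Ahrr near 0. Each of the 7 levels lay apart from its neighbours by more than their SDs added together.

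Of 5 close relatives of Nqo1, Aldh3a1 and Arnt, 2 were called higher (against 33.6% of all tested genes) and 3 were not called. Nqo2 was at 16.0 ± 1.94 CPM in DMSO against 16.6 ± 0.58 CPM in baicalin (SD, n = 3 each, edgeR adjusted p = 0.638). It is uncertain, because 762 bases of its exons are shared with Serpinb6a on the opposite strand, and that gene had 22311 reads against 1720. Aldh3a2, the neighbour of Aldh3a1, and Aldh3b1 were higher by log2 fold changes of 0.21 (adjusted p = 0.00023) and 0.67 (adjusted p = 8.92e-10). The call of Aldh3a2 was lost with library-size scaling (0.08). Arnt2, the homologue of Arnt in neural tissue, had a log2 fold change of -0.22 (SE 0.12, adjusted p = 0.0953). These differences from the members were not tested.

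**Figure D5:**
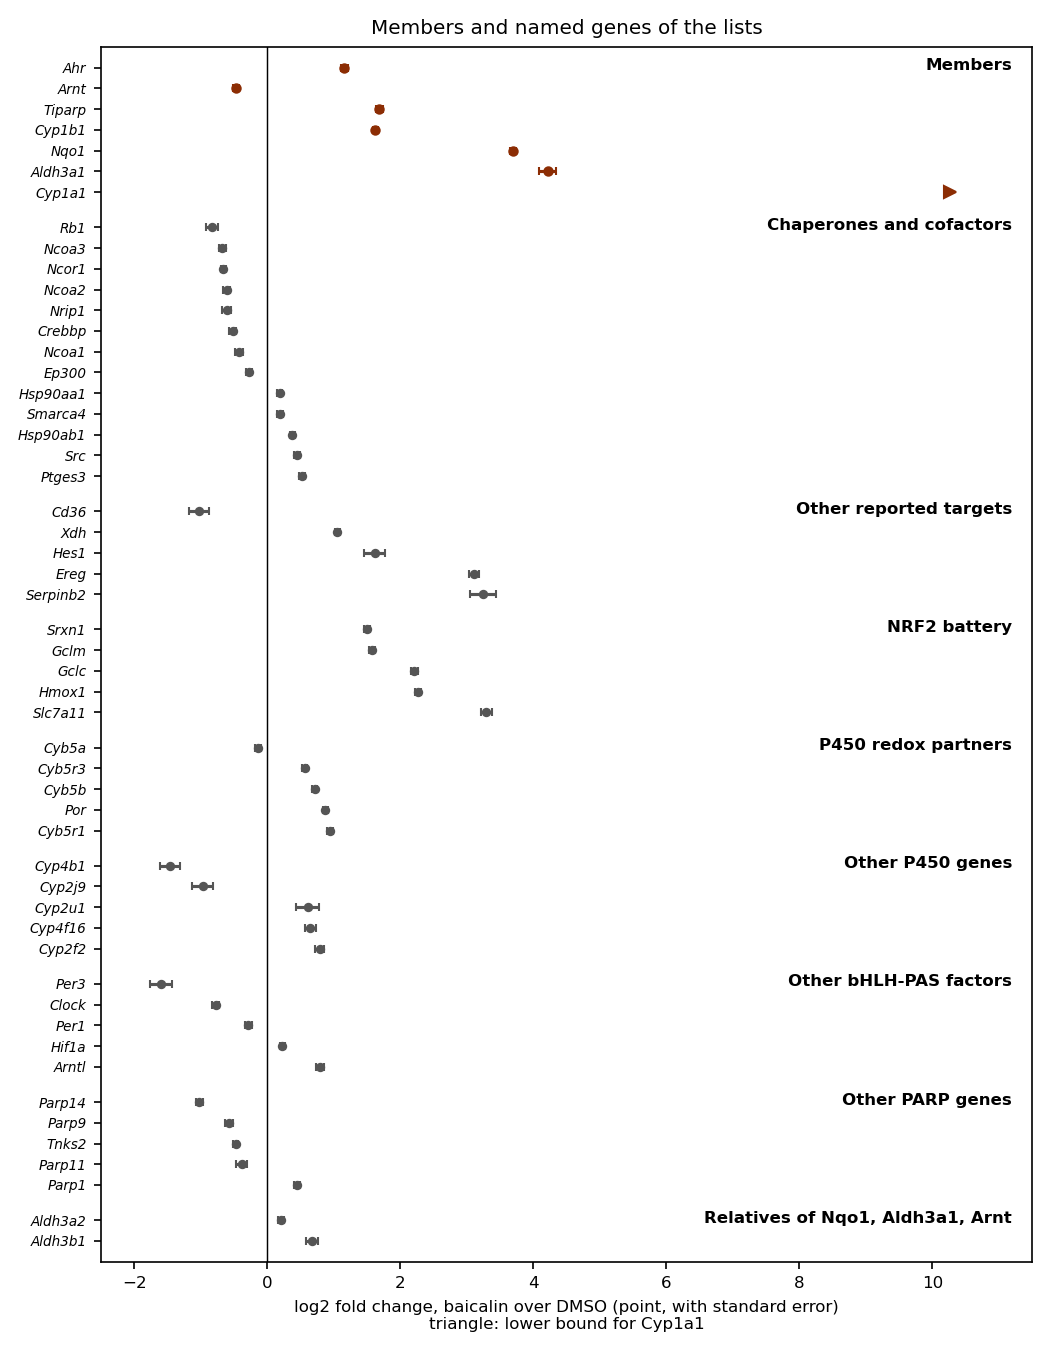
Log2 fold changes (baicalin over DMSO, with standard errors) of the tested members in brown and of named genes of 8 lists in grey (the tryptophan enzymes are not drawn). The triangle of Cyp1a1 is its lower bound of 1227-fold, drawn on the log2 axis. Among the plotted genes, Aldh3a1 (4.21) and Nqo1 (3.69) lie farther right than all others but Cyp1a1.

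Of 15 chaperones, coactivators and corepressors that work with the receptor, all tested, 6 were called higher and 8 lower. Over all tested genes 33.6% were called higher and 34.1% lower. The list's median was -0.28 on the log2 scale. Among the higher genes were the chaperones Hsp90ab1 (0.37), Hsp90aa1 (0.18) and Ptges3 (0.52), the kinase Src (0.45) and the remodeller Smarca4 (0.19). The calls of Hsp90aa1 and Smarca4 were lost with library-size scaling (0.06 each). Lower were the coactivators Ncoa1 (-0.43), Ncoa2 (-0.61), Ncoa3 (-0.68), Ep300 (-0.28) and Crebbp (-0.52), with Nrip1 (-0.61), Ncor1 (-0.66) and Rb1 (-0.83). Hsp90ab1, for example, went from 2264 ± 43.6 to 2928 ± 60.2 CPM (edgeR adjusted p = 6.36e-13), and Ncoa2 from 79.3 ± 3.52 to 51.9 ± 2.44 CPM (SD, n = 3 each). Exons of Ncoa3 overlap those of Sulf2 and exons of Rb1 those of Rcbtb2, both on the opposite strand and with 79.8% and 131% as many reads, so that these are uncertain.

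Other genes reported as targets of the receptor were split. Of 17 such genes 13 were tested, 8 of them higher and 4 lower (2 lower on the FPKM scales). Over all tested genes the shares were 33.6% higher and 34.1% lower. The list's median was 0.42 on the log2 scale. Serpinb2, an inhibitor of plasminogen activators, went from 15, 19 and 21 reads under DMSO to 161, 169 and 170 under baicalin (edgeR adjusted p = 6.65e-21), a log2 fold change of 3.25 (SE 0.20). The growth factor Ereg rose from 10.3 ± 0.9 to 89.1 ± 5.2 CPM (adjusted p = 1.8e-39). Xdh, which encodes xanthine dehydrogenase, rose from 887 ± 33.8 to 1837 ± 59.2 CPM (adjusted p = 2.16e-30), and Hes1, a repressor downstream of Notch, from 3.63 ± 0.86 to 11.1 ± 1.47 CPM (adjusted p = 5.62e-13). The fatty acid transporter Cd36 fell from 43.7 ± 8.34 to 21.4 ± 1.37 CPM (SD, n = 3 each, adjusted p = 0.00104). Classical battery members beyond the 9 gave few usable values. Gsta1 had too few reads to test, at 0.07 CPM in DMSO against 0.29 CPM in baicalin. Ugt1a6a fell from 2.40 ± 0.42 to 1.21 ± 0.46 CPM (edgeR adjusted p = 0.00309). Ugt1a6b was called higher (log2 fold change 0.42, edgeR adjusted p = 0.00164), with overlapping groups. Both are uncertain, because they have 1311 exon bases in common. Ugt1a7c also shares 2170 bases with Ugt1a6a and 1444 with Ugt1a6b, and had 649% and 88.4% as many reads. Cyp2s1, a P450 gene reported to be inducible through the receptor, was at 0.81 ± 0.3 CPM in DMSO against 0.23 ± 0.09 CPM in baicalin (adjusted p = 0.00205) but is uncertain, because 260 bases of its exons overlap Gm26707 on the opposite strand, with 67.9% as many reads. It was picked out with its value in view, as were Ugt1a6a, Ugt1a6b, Gsta1 and Ido1. So was Fgf21 of the same list, which rose from 0.42 ± 0.13 to 3.34 ± 1.04 CPM (SD, n = 3 each, edgeR adjusted p = 5.27e-11).

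Targets of NRF2, which shares Nqo1 with the receptor, were higher throughout the list. All 20 tested genes of this battery (Nqo1 left out) were called higher, against 33.6% of all tested genes. Their median was 1.24 on the log2 scale, beside 0.00 over all genes. The list was written with earlier results of these data known. Slc7a11 (3.29), Hmox1 (2.26), Gclc (2.21), Gclm (1.57) and Srxn1 (1.49) led it by log2 fold change. How far the values of Nqo1 move with NRF2 rather than with the receptor was not tested.

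Among 16 other bHLH-PAS genes, the family of Ahr and Arnt, 13 were tested, with 3 higher, 5 lower and a median of -0.20, where 33.6% of all tested genes were higher and 34.1% lower. Without DMSO replicate 1 the number called lower was 3. Per3 (-1.60), Clock (-0.78) and Per1 (-0.29) were lower, and Arntl (0.79) and Hif1a (0.22) higher on the log2 scale. Of 15 other genes of the PARP family 3 were higher and 10 lower (median -0.22), against the same shares over all tested genes, and the number lower was 8 to 10 under the alternatives. Among them Parp10 (0.29) and Parp9 (-0.58) are uncertain, since their exons overlap those of Plec and Dtx3l, which had 1150% and 85.2% as many reads. Parp14, a mono-ADP-ribosyltransferase induced by interferon, fell from 110.5 ± 6.99 to 54.3 ± 3.84 CPM (SD, n = 3 each, edgeR adjusted p = 8.67e-22). Enzymes that make receptor ligands from tryptophan were sparse. Of 13 genes 5 were tested, 1 called higher and 2 lower (median -0.24), against the same shares over all tested genes. Ido2, which like Ido1 opens the tryptophan ring, had 7, 5 and 3 reads under DMSO but 30, 34 and 28 under baicalin (log2 fold change 2.66, SE 0.41, edgeR adjusted p = 1.17e-07), and is named with its value known. Ido1 had at most 0.04 CPM on average in either group. Kyat1, which forms kynurenic acid, was called lower (-0.24, adjusted p = 0.00829), with overlapping groups. It was not called when DMSO replicate 1 (-0.13) or baicalin replicate 3 (-0.17) was left out, nor on the FPKM scales (from -0.22 to -0.20).

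Few genes shared the off-to-on pattern of Cyp1a1. Only 2 other genes had no DMSO read and at least 10 reads in every baicalin library. They were Lipg, an endothelial lipase gene, with 17, 14 and 15 reads, and the cytokine gene Il19 with 16, 10 and 17 reads, each under 0.9 CPM against 67.9 CPM for Cyp1a1. For the other members, likeness was the Euclidean distance over the 6 libraries between log2(CPM + 1) values, each gene taken relative to its own mean. The search covered 9729 genes with a mean of at least 5 CPM, leaving out Gm, Rik, clone and pseudogene names. A distance of 0 means the same profile, and 2 groups of 3 libraries leave few ways to differ. Nearest to Ahr were Ccnb1 (0.11), Slc35b1 (0.12) and Nedd4l (0.12). Nearest to Arnt were Pltp (0.03), Limd1 (0.04) and Mxd4 (0.04). Egln1, an oxygen sensor, was nearest to Tiparp (0.03). Nearest to Cyp1b1 were Lpcat4, Timp1 and again Egln1 (0.08 each). For Nqo1 the nearest were Bst1 (0.29) and Grem1 (0.32), and for Aldh3a1 it was Slpi (0.37). These distances are larger, but the distance is not scaled to the size of a gene's change. Exons of Bst1 overlap those of Fbxl5, and exons of Pltp those of Ctsa, both with more reads, so that these genes are uncertain.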

How the data were processed

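The deposited counts per gene come from featureCounts 1.5.0-p3, run by the authors, per the series design text, on mm10, per the submitters' processing notes. FPKM values were deposited by the authors beside them, computed from counts and gene length, per the series design text. Libraries were made from poly(A) RNA, per the labels' protocols. The aligner, the annotation and the strand setting: not given in the sources used here. The table holds 54532 genes, of which 54409 identifiers are in GENCODE M21 (GRCm38, the mm10 assembly), the source of coordinates and exon overlaps. Counts were tested over all genes with edgeR 4.0.16 (R 4.3.3) with filterByExpr, TMM factors (0.945 to 1.05) and robust quasi-likelihood fits on treatment alone. SEs are the absolute log2 fold change over the square root of F. The fit was tested on simulated data in which far fewer genes changed than were called here. That test does not cover a contrast this broad. Levels between genes are compared in FPKM. Within groups the libraries varied beyond counting noise (chi-square per degree of freedom 2.83 to 4.35), so none was taken for a repeat deposit of another. This does not show that they are separate cultures.

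The members and lists were chosen with earlier results of these data known. Named genes are the members, up to 5 called genes per list by size of change (mean of at least 5 CPM), the chaperones and cofactors, and the genes of nearest profile. Some genes of the chaperone and cofactor list are counted and not reported here by name. Relatives and exon neighbours of members are named as such, and other genes outside the rule are marked in the text. Alternatives were DESeq2 1.42.0, limma-voom (limma 3.58.1), RLE factors, library size alone, no count filter, a stricter one (1 CPM in each of the 3 libraries of either group), a replicate block, leaving out each library, and limma-trend with pseudocounts of 1 (filtered at 1 FPKM or not) and 0.1 on log2 FPKM. Figures were drawn with matplotlib 3.10.9.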

Additional observations from a re-analysis of the deposited data

How the results depend on the processing

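Over all genes tested in each of the 16 alternatives, 3472 to 4911 were called higher and 3519 to 5811 lower. In the main fit the shares were 33.6% and 34.1%. Among the 7 tested members, 6 were called higher and 1 lower under every alternative, and nothing is read from these counts. None of the members' log2 fold changes turned. Ranges were 1.03 to 1.21 for Ahr, -0.60 to -0.44 for Arnt, 1.55 to 1.73 for Tiparp, 1.49 to 1.66 for Cyp1b1, 3.56 to 3.74 for Nqo1 and 4.03 to 4.35 for Aldh3a1. The fitted value of Cyp1a1 (4.69 to 13.26) depends on the prior count or pseudocount, so only its bound is used. Same-numbered libraries did not deviate together (correlations of deviations 0.053, 0.051 and -0.0044). With the replicate block 4660 genes were called higher and 4731 lower, against 4618 and 4676, and no call of a member changed. On the 3 FPKM scales (filtered with either pseudocount, and unfiltered), 2 other targets in place of 4 and 3 bHLH-PAS genes in place of 5 were called lower, and 0 tryptophan genes lower in place of 2. With the filter, 0 tryptophan genes were higher in place of 1. The stricter filter gave 1 tryptophan gene lower, and no filter gave 0 P450 partners lower in place of 1. Fewer genes are tested with the FPKM filter and the stricter filter. For the other targets, bHLH-PAS and tryptophan genes, the FPKM-scale numbers called lower were the same with and without the filter. The cause of these differences was not tested. Library size alone gave 1 relative higher in place of 2 and 1 lower in place of 0. Leaving out 1 library gave 3 to 5 bHLH-PAS genes lower, 0 to 1 P450 partners lower, 1 to 2 tryptophan genes higher and 0 to 3 lower. The lowest of these came without DMSO replicate 1 (3 bHLH-PAS genes, 0 partners and 0 tryptophan genes lower), 2 tryptophan genes were higher without baicalin replicate 2, and 1 was lower without baicalin replicate 3. Of 768 values for named list genes, 11 lost a call, 1 gained one and none reversed. Depth limits Ahrr and Cyp1a2, which rest on few reads, and the 8 tryptophan genes too low to test.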
